A study of Mus musculus with 12 samples.

Results

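The genes described here are 59 genes of the mitotic spindle, the kinetochore, chromosome condensation and cytokinesis, taken by gene symbol from the 2 deposited count tables. They were chosen with earlier results of these data known, so counts of members beside all tested genes are descriptions. All 59 symbols were present among the 24421 genes of each table. All 59 also passed the filter on low counts, which left 12164 genes to be tested.

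RNA was sequenced from bone marrow-derived macrophages of male C57BL/6J mice aged 8 weeks, which are primary macrophages that marrow cells form in culture. The 4 groups of 3 libraries each were LPS-treated siEhd1 cells (labelled M1), LPS-treated siControl cells (M1), resting siEhd1 cells (M0) and resting siControl cells (M0). The siRNA siEhd1 targets Ehd1, which encodes a protein of endocytic recycling, siControl is the control siRNA, and lipopolysaccharide (LPS) is a bacterial cell wall component that activates macrophages. No source used here gives the LPS dose and time, the siRNA sequences or the time since transfection, and cells without siRNA were not analysed here. The labels do not say whether libraries of a group came from separate animals or cultures, so the p-values measure only how far these libraries spread, and that spread may be technical.

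Mitosis begins when CDK1 bound to its cyclins is switched on, after which chromosomes condense and the spindle attaches to their kinetochores. The spindle checkpoint holds the anaphase-promoting complex (APC/C) back until every kinetochore is attached. The complex then marks securin and the cyclins for destruction, separase cuts cohesin, and kinesins at the midzone and a contractile ring divide the cell. Most of the genes are transcribed late in the cell cycle. In cells that have left the cycle the DREAM complex represses them through a promoter element called the cell cycle genes homology region (CHR), and in cycling cells B-MYB and FOXM1 activate them through the MuvB core of the same complex. CCAAT boxes, bound by NF-Y, often lie beside that element. Macrophages grown from marrow in CSF1 keep dividing for some days in culture, and LPS is known to arrest them.

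Library totals ran from 18572725 to 22545272 counts with 14119 to 14753 genes detected, and no member had fewer than 11 counts in any library. Levels are TMM-scaled CPM, that is, counts relative to the library total, and are compared between libraries and not between genes, because the values are not divided by gene length. Ehd1 itself stood at 282, 319 and 304 CPM in LPS-treated siEhd1 libraries, against 678, 631 and 550 CPM in LPS-treated siControl libraries (log2 fold change -1.04, SE 0.07, edgeR adjusted p = 2.5e-08). In resting cells it stood at 33.6, 32.0 and 29.0 CPM with siEhd1, against 53.3, 52.1 and 54.4 CPM with siControl (-0.76, SE 0.08, edgeR adjusted p = 5.7e-07). The knockdown was thus partial in both states and no siEhd1 library overlapped the siControl libraries of its state.

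In resting macrophages all 59 members, which were chosen with earlier results of these data known, were higher with siEhd1 than with siControl. The increase passed the edgeR test at an adjusted p below 0.05 for 59 of 59 members, where 14.0% of all tested genes were called higher. For 59 of 59 members the lowest siEhd1 library also lay above the highest siControl library, which held for 21.4% of all tested genes. The median log2 fold change was 1.49 (2.81-fold), against -0.02 over all tested genes, and members ranged from 0.57 for Incenp to 2.07 for Pbk with SE from 0.06 to 0.24. At least 2-fold increases were seen in 55 members, and adjusted p-values ran from 2.8e-09 to 0.0015. More dividing cells in a library and more of these RNAs in each cell cannot be told apart in bulk RNA.

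In LPS-treated macrophages most of the members were also higher with siEhd1. All 59 log2 fold changes were positive, with a median of 0.63 (1.55-fold) against 0.00 over all tested genes, from 0.06 for Aurka to 1.02 for Hmmr. The increase passed the test for 42 members and none was called lower, where 4.44% of all tested genes were called higher. The libraries did not overlap for 57 members, the exceptions being Aurka and Ncapg, against 12.6% of all tested genes. Hmmr was the 1 member with at least a 2-fold increase. Of the 42 calls, 24 held under every alternative processing tried. The number of calls dropped to 25 when LPS-treated siEhd1 replicate 1 was left out, while the median stayed at 0.62 to 0.66 whichever library was removed.

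The siEhd1 effect differed between the states. Tested as the effect in LPS-treated cells minus that in resting cells, 39 members were called lower and 0 higher, where 2.93% of all tested genes were called lower. The median difference was -0.82 on the log2 scale, from -1.54 for Nuf2 to 0.00 for Cenpa, and 58 of 59 values were negative. The number of calls lay between 33 and 49 when single libraries were left out. Each state has a count table of its own and no batch is given, so handling that differed between the tables and LPS treatment cannot be told apart.

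**Figure D1:**
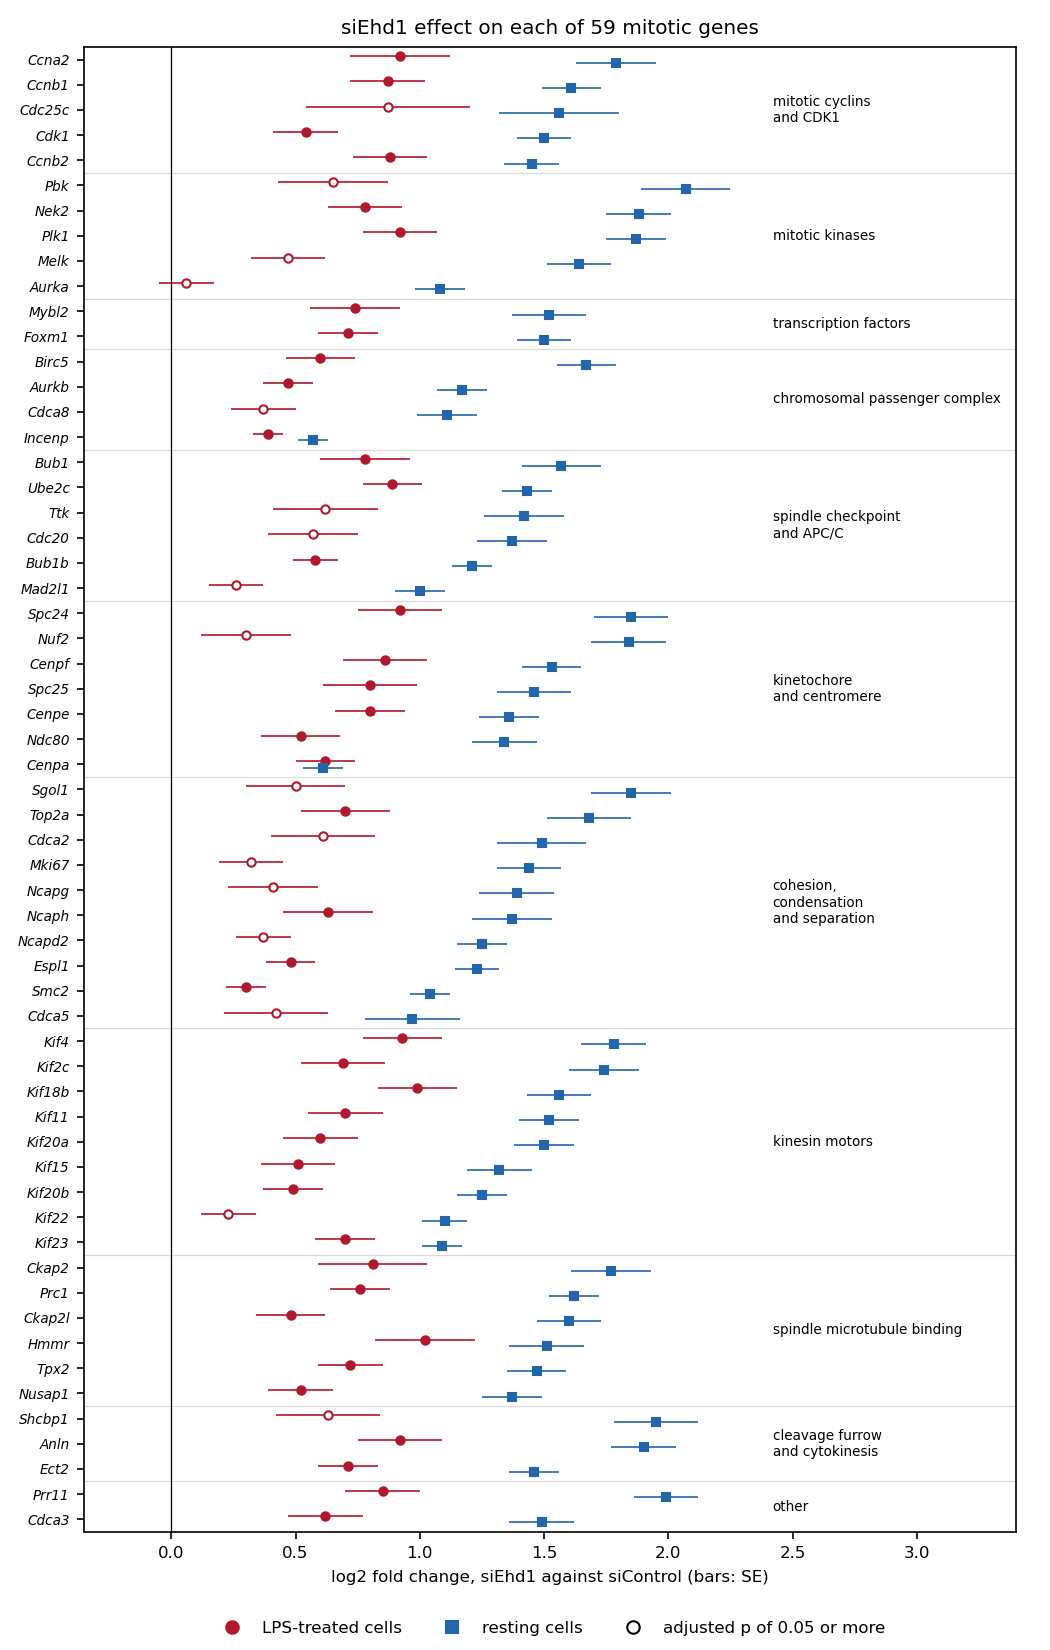
Log2 fold change of siEhd1 against siControl for each of the 59 genes, grouped by role, in LPS-treated cells (red circles) and resting cells (blue squares); bars are SE and open symbols have an adjusted p of 0.05 or more. Every blue square lies above 0 by more than its SE, and for all members but Cenpa the red circle lies to the left of the blue square.

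Summed over the 59 genes, the level was 794, 773 and 778 CPM in LPS-treated siEhd1 libraries, against 543, 540.3 and 524 CPM in LPS-treated siControl libraries. In resting cells the sum was 1728, 1866 and 1522 CPM with siEhd1, against 553, 693 and 744 CPM with siControl. The means were 782 ± 10.7 CPM in LPS-treated siEhd1 cells, 536 ± 10.5 CPM in LPS-treated siControl cells, 1705 ± 173 CPM in resting siEhd1 cells and 663 ± 98.9 CPM in resting siControl cells (SD, n = 3 each). The resting groups had the wider spread. The median coefficient of variation of single members was 7.43% in LPS-treated siEhd1 cells, 9.33% in LPS-treated siControl cells, 11.1% in resting siEhd1 cells and 17.6% in resting siControl cells.

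The members moved together from library to library within the resting groups. Among resting siControl libraries, replicate 1 was the lowest for 55 of 59 members and replicate 3 the highest for 45. Among resting siEhd1 libraries, replicate 3 was the lowest for 54 and replicate 2 the highest for 47. With LPS the order was less uniform, and no library was the lowest of its group for more than 30 members. Single members are thus not independent measurements of the siEhd1 effect. Leaving out single libraries moved the resting median between 1.35 and 1.63 and left all 59 members called each time.

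**Figure D2:**
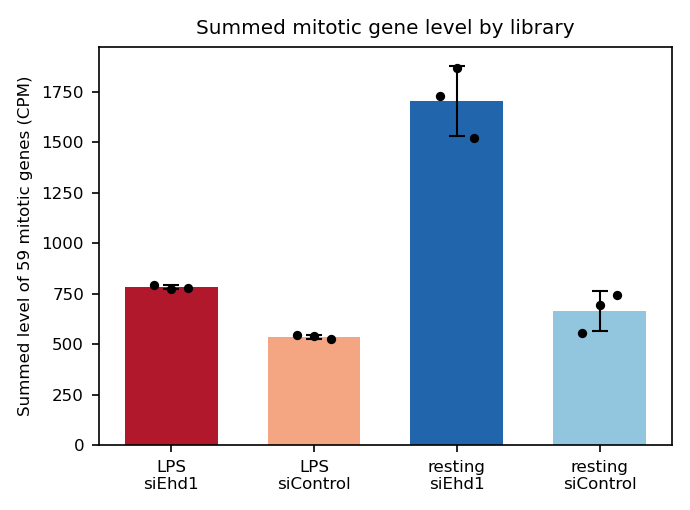
Summed level of the 59 genes in CPM by group; bars are means, error bars are SD over 3 libraries and points are libraries. Resting siEhd1 libraries lie between 1522 and 1866 CPM and all other libraries between 524 and 794 CPM.

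Promoter sequences were examined because the members moved together. RefSeq promoters of 300 bases (250 before to 50 after the annotated start, build GRCm38.p6) were matched for 48 of the 59 members and for 9317 tested genes in all. Only the first promoter listed for a gene was used. The start it marks can lie inside the gene as annotated by GENCODE, as for Kif2c and Cdca8. The CHR, searched as TTTGAA on both strands, was found in 36 of 48 members and in 11.9% of promoters of tested genes. The CCAAT box, searched as CCAAT on both strands, was found in 35 of 48 and in 39.1%, and at least 2 copies in 24 of 48 and in 15.2%. Both elements occurred in 30 of 48 members (62.5%) and in 5.12% of promoters of tested genes. An E2F-type motif, GCGGGAA, was found in 1 member (2.08%, against 8.61%) and TATAAA in 1 (2.08%, against 6.77%). Each motif was counted separately, also where matches overlap. These are matches of letters and not measured binding, and the shares are descriptions.

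The promoters of the 4 members with the lowest LPS effects in siControl cells are shown first. All 4 carry both elements, as do 30 of the 48 members with a promoter. Capitals mark the CHR (TTTGAA, or TTCAAA where it lies on the other strand) and the CCAAT box (CCAAT or ATTGG), and each sequence runs 5′ to 3′ along the gene's own strand. Ccnb2 (chr9:70421505-70421804, minus strand) holds 3 CCAAT boxes and 2 CHR matches, the nearer starting 5 bases after the annotated start. Kif23 (chr9:61946750-61947049, minus strand) has its CCAAT box 4 bases before the CHR, which starts at 3. Cenpa (chr5:30666636-30666935, plus strand) holds its CHR at 17 and Cenpf (chr1:189688037-189688336, minus strand) at 3. Nuf2 (chr1:169531415-169531714, minus strand), the member with the lowest difference between the states, is shown as one with neither element.
Ccnb2: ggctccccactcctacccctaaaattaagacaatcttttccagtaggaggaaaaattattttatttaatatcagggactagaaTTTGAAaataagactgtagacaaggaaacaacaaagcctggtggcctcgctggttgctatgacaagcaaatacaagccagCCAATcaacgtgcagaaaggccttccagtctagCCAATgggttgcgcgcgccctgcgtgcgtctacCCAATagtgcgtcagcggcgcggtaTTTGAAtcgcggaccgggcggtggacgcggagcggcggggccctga
Kif23: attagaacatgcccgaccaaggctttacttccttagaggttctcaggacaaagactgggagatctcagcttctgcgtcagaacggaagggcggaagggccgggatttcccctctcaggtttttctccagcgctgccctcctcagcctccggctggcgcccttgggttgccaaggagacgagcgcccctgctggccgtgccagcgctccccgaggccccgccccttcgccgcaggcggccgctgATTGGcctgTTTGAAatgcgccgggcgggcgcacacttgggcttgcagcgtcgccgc
Cenpa: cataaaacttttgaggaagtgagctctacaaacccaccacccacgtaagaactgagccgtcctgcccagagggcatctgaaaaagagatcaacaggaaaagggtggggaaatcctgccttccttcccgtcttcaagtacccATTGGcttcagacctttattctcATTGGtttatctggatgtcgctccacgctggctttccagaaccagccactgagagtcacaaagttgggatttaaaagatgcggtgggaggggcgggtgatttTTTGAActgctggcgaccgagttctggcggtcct
Cenpf: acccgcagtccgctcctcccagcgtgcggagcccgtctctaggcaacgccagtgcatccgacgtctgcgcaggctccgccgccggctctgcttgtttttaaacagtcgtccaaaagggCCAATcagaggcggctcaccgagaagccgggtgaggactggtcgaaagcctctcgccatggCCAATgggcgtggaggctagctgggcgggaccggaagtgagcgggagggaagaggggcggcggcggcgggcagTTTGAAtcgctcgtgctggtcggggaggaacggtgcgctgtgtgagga
Nuf2: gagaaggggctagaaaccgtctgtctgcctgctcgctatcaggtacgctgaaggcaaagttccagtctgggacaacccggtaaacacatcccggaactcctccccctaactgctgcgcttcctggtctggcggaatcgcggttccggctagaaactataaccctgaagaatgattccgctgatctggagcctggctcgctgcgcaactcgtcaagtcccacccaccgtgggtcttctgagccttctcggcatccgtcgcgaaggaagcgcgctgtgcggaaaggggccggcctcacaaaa

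Around the CHR, 30-base windows from further members show how much of the element's surroundings is shared. Positions count bases from the RefSeq start. The windows are from Cdk1 (chr10:69352910-69352939, minus strand, CHR at -15), Plk1 (chr7:122159453-122159482, plus strand, 31), Aurka (chr2:172370521-172370550, minus strand, 33) and Ube2c (chr2:164769888-164769917, plus strand, -29). The others are from Kif11 (chr19:37376351-37376380, plus strand, -19), Mki67 (chr7:135716460-135716489, minus strand, -98), Prc1 (chr7:80294434-80294463, plus strand, -5) and Hmmr (chr11:40733412-40733441, minus strand, 9).
Cdk1: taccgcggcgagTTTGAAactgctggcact
Plk1: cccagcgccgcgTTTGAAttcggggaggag
Aurka: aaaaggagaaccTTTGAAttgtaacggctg
Ube2c: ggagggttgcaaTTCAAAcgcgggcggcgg
Kif11: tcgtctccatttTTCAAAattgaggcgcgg
Mki67: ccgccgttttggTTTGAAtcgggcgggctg
Prc1: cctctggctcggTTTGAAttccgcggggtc
Hmmr: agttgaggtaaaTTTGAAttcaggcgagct

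Over all 48 members the CHR gave 48 matches, of which 36 began between 50 bases before and 50 bases after the start, with a median position of -7. CCAAT boxes gave 81 matches, of which 77 lay upstream of the start, with a median of -67. The 36 members with a CHR match had a median siEhd1 effect of 0.62 in LPS-treated cells and 1.44 in resting cells. The 12 without had 0.62 and 1.59. Only the exact letters TTTGAA were searched, and the difference between members with and without a match was not tested. Under LPS with siControl the medians were -0.52 with a CHR match and -0.08 without, and with siEhd1 they were -1.33 and -1.23. The split by CCAAT box, 35 members with and 13 without, was similar. Its medians were -0.51 and -0.12 with siControl, and -1.32 and -1.28 with siEhd1. Both elements occurred in 30 members, and neither split was tested.

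**Figure D3:**
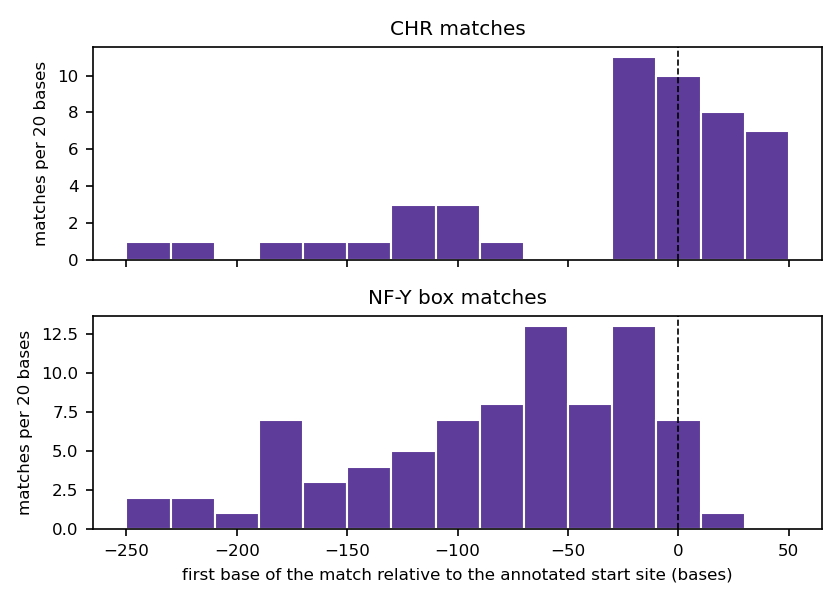
Positions of CHR matches (top) and NF-Y box matches, the CCAAT boxes of the text (bottom), in the 48 member promoters, as matches per 20 bases against the distance in bases from the annotated start (dashed line). CHR matches gather around the start, 36 of 48 within 50 bases of it, and 77 of 81 NF-Y boxes lie upstream.

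By role, values in brackets are log2 fold changes of siEhd1 against siControl with their SE, levels are single libraries in CPM or mean ± SD over 3 libraries, and the resting adjusted p was at most 0.0015 for every member. The mitotic cyclins and CDK1 carry the switch into mitosis, and 5 of 5 were called higher with siEhd1 in resting cells and 4 of 5 in LPS-treated cells. Cdk1, the kinase itself, stood in LPS-treated cells at 14.3, 12.4 and 11.8 CPM with siEhd1, against 7.99, 8.77 and 9.75 CPM with siControl (log2 fold change 0.54, SE 0.13). Resting levels of Cdk1 were 31.4, 30.3 and 24.95 CPM with siEhd1, against 8.94, 9.65 and 11.98 CPM with siControl (1.50, SE 0.11). The 3 resting siEhd1 libraries thus lay above all other libraries, and the resting siControl range overlapped both LPS-treated ranges. Ccnb1, cyclin B, which brings CDK1 into mitosis, stood in LPS-treated cells at 10.96, 11.6 and 11.6 CPM with siEhd1, against 6.56, 6.74 and 5.37 CPM with siControl (0.87, SE 0.15). Ccnb1 in resting cells stood at 29.3, 30.7 and 25.2 CPM with siEhd1, against 7.04, 9.60 and 11.3 CPM with siControl (1.61, SE 0.12). Ccna2, cyclin A, acts in DNA synthesis and at mitotic entry. It stood in LPS-treated cells at 12.7, 12.6 and 12.1 CPM with siEhd1, against 6.31, 6.39 and 7.04 CPM with siControl (0.92, SE 0.20). Without LPS, Ccna2 stood at 35.4, 41.8 and 30.1 CPM with siEhd1, against 7.09, 11.7 and 12.3 CPM with siControl (1.79, SE 0.16), again without overlap. The second B-type cyclin, Ccnb2, averaged 6.47 ± 0.797 CPM with siEhd1 and 3.50 ± 0.783 CPM with siControl in LPS-treated cells (0.88, SE 0.15). Resting levels of Ccnb2 averaged 27.6 ± 1.64 CPM with siEhd1 and 10.1 ± 1.13 CPM with siControl (1.45, SE 0.11). Cdc25c, a phosphatase that activates CDK1, was the member without a call under LPS, at 1.42, 0.871 and 1.20 CPM with siEhd1, against 0.740, 0.644 and 0.523 CPM with siControl (0.87, SE 0.33, edgeR adjusted p = 0.12). Its libraries did not overlap there, but its counts were the lowest of the role and its SE the largest. Resting levels of Cdc25c averaged 3.09 ± 0.617 CPM with siEhd1 and 1.04 ± 0.367 CPM with siControl (1.56, SE 0.24). The LPS calls of Cdk1 and Ccna2 were lost in some alternatives, with adjusted p up to 0.074 without LPS-treated siEhd1 replicate 1 for Cdk1 and up to 0.064 for Ccna2 without LPS-treated siControl replicate 1 or 2 or siEhd1 replicate 1 or 2.

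Of 5 mitotic kinases outside CDK1, 5 were called higher with siEhd1 in resting cells, but 2 in LPS-treated cells, and all 5 were called in the difference between states. Plk1, which drives centrosome maturation and several later steps, stood in LPS-treated cells at 10.3, 10.7 and 9.18 CPM with siEhd1, against 5.67, 5.75 and 4.66 CPM with siControl (log2 fold change 0.92, SE 0.15). For Plk1 the resting libraries gave 28.3, 34.6 and 25.5 CPM with siEhd1, against 6.65, 8.33 and 9.13 CPM with siControl (1.87, SE 0.12). Aurka encodes Aurora A, the kinase of the spindle poles. In LPS-treated cells its levels overlapped, at 7.12, 7.50 and 7.74 CPM with siEhd1, against 7.10, 7.53 and 6.80 CPM with siControl (0.06, SE 0.11, edgeR adjusted p = 0.82). Resting levels of Aurka were 12.6, 13.8 and 11.1 CPM with siEhd1, against 5.86, 5.57 and 6.28 CPM with siControl (1.08, SE 0.10), without overlap. Aurka was one of the 2 members called higher in LPS-treated than in resting siControl cells, a call lost in some alternatives. Nek2, which parts the centrosomes, averaged 8.12 ± 1.21 CPM with siEhd1 and 4.73 ± 0.685 CPM with siControl in LPS-treated cells (0.78, SE 0.15) and 23.7 ± 2.68 CPM with siEhd1 and 6.43 ± 1.10 CPM with siControl in resting cells (1.88, SE 0.13). Melk, a kinase abundant in dividing progenitors, averaged 5.13 ± 0.538 CPM with siEhd1 and 3.72 ± 0.165 CPM with siControl in LPS-treated cells (0.47, SE 0.15, edgeR adjusted p = 0.052), without overlap between libraries. Resting levels of Melk averaged 12 ± 1.52 CPM with siEhd1 and 3.85 ± 0.562 CPM with siControl (1.64, SE 0.13). Pbk, a kinase active in mitosis, had the largest resting fold change of all members, with 9.91, 11.5 and 9.03 CPM with siEhd1, against 1.67, 2.63 and 2.94 CPM with siControl (2.07, SE 0.18). Under LPS it averaged 3.38 ± 0.485 CPM with siEhd1 and 2.16 ± 0.602 CPM with siControl (0.65, SE 0.22, edgeR adjusted p = 0.080), also without overlap.

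Both transcription factors of late cell cycle genes were called higher in each state. Foxm1 stood in LPS-treated cells at 13.8, 13.1 and 14.3 CPM with siEhd1, against 8.19, 7.73 and 9.27 CPM with siControl (log2 fold change 0.71, SE 0.12). Foxm1 in resting cells stood at 29.1, 32.5 and 24.9 CPM with siEhd1, against 8.85, 9.95 and 11.8 CPM with siControl (1.50, SE 0.11). Mybl2, which encodes B-MYB, stood in LPS-treated cells at 5.75, 4.74 and 4.70 CPM with siEhd1, against 2.32, 3.52 and 3.28 CPM with siControl (0.74, SE 0.18). Without LPS, Mybl2 stood at 9.69, 9.99 and 8.77 CPM with siEhd1, against 2.47, 3.46 and 3.99 CPM with siControl (1.52, SE 0.15). The Mybl2 call under LPS was lost without LPS-treated siEhd1 replicate 1 (edgeR adjusted p = 0.076). The effect on Foxm1 differed between states (difference -0.79, SE 0.16, edgeR adjusted p = 0.0053), and that on Mybl2 was not called as different (difference -0.78, SE 0.24, edgeR adjusted p = 0.056).

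The chromosomal passenger complex corrects wrong attachments and later marks the cleavage site. Of its 4 genes, 4 were called higher in resting cells and 3 in LPS-treated cells. Aurkb, its kinase, stood in LPS-treated cells at 13.1, 13.4 and 11.99 CPM with siEhd1, against 9.96, 9.22 and 8.70 CPM with siControl (log2 fold change 0.47, SE 0.10). For Aurkb the resting libraries gave 20.7, 22.4 and 17.2 CPM with siEhd1, against 8.67, 8.86 and 9.17 CPM with siControl (1.17, SE 0.10). Birc5, survivin, which docks the complex on chromatin, stood in LPS-treated cells at 8.16, 6.83 and 8.09 CPM with siEhd1, against 4.59, 5.06 and 5.52 CPM with siControl (0.60, SE 0.14). Resting levels of Birc5 were 21.5, 20.1 and 17.4 CPM with siEhd1, against 4.80, 6.71 and 6.98 CPM with siControl (1.67, SE 0.12). The Birc5 call under LPS was lost without LPS-treated siEhd1 replicate 1 (edgeR adjusted p = 0.062). Incenp, the scaffold, had the smallest resting effect of all members. It averaged 118 ± 3.13 CPM with siEhd1 and 89.9 ± 6.54 CPM with siControl in LPS-treated cells (0.39, SE 0.06) and 111 ± 8.05 CPM with siEhd1 and 74.5 ± 2.68 CPM with siControl in resting cells (0.57, SE 0.06). It was the 1 member whose mean was highest in LPS-treated siEhd1 cells. Cdca8, borealin, averaged 25.5 ± 4.56 CPM with siEhd1 and 11.8 ± 1.32 CPM with siControl in resting cells (1.11, SE 0.12). In LPS-treated cells it stood at 14.2, 16.5 and 13.2 CPM with siEhd1, against 12.1, 11.1 and 10.9 CPM with siControl (0.37, SE 0.13, edgeR adjusted p = 0.10), with no overlap but without a call.

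Genes of the spindle checkpoint and of the ubiquitin step that it restrains were called higher in 6 of 6 cases in resting cells and in 3 of 6 in LPS-treated cells. Bub1b, the checkpoint protein BUBR1, had the smallest resting p-value of the members, with 37.7, 39.6 and 33.0 CPM with siEhd1, against 14.7, 16.6 and 16.4 CPM with siControl (log2 fold change 1.21, SE 0.08, edgeR adjusted p = 2.8e-09). Under LPS it stood at 14.4, 13.9 and 14.9 CPM with siEhd1, against 9.17, 10.2 and 9.51 CPM with siControl (0.58, SE 0.09). Mad2l1, which encodes the MAD2 protein that binds and holds CDC20, stood in resting cells at 17.0, 18.1 and 15.2 CPM with siEhd1, against 7.22, 8.73 and 9.26 CPM with siControl (1.00, SE 0.10). Under LPS it stood at 10.6, 8.42 and 9.92 CPM with siEhd1, against 8.14, 7.93 and 8.13 CPM with siControl (0.26, SE 0.11, edgeR adjusted p = 0.19), a small separation of the libraries that was not called. Cdc20, the APC/C activator, stood in LPS-treated cells at 6.78, 7.21 and 8.03 CPM with siEhd1, against 6.12, 5.204 and 3.47 CPM with siControl (0.57, SE 0.18, edgeR adjusted p = 0.061). Cdc20 in resting cells stood at 24.9, 26.9 and 23.8 CPM with siEhd1, against 7.70, 10.8 and 10.8 CPM with siControl (1.37, SE 0.14). The lowest LPS-treated siEhd1 library of Cdc20 lay just above the highest siControl library. Ube2c, the ubiquitin-conjugating enzyme of the APC/C, had the smallest p-value of the members under LPS, with 10.9, 11.9 and 12.3 CPM with siEhd1, against 7.30, 6.10 and 5.52 CPM with siControl (0.89, SE 0.12, edgeR adjusted p = 9.5e-05). Without LPS, Ube2c stood at 32.6, 33.9 and 26.9 CPM with siEhd1, against 10.5, 11.5 and 12.7 CPM with siControl (1.43, SE 0.10).

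Of the 2 checkpoint kinases, Bub1 was called under LPS and Ttk was not. Bub1 averaged 9.95 ± 0.489 CPM with siEhd1 and 5.79 ± 0.382 CPM with siControl in LPS-treated cells (log2 fold change 0.78, SE 0.18, edgeR adjusted p = 0.010) and 17.1 ± 2.81 CPM with siEhd1 and 5.75 ± 1.63 CPM with siControl in resting cells (1.57, SE 0.16). Its LPS call was lost without LPS-treated siControl replicate 2 or siEhd1 replicate 1, with adjusted p up to 0.055. Ttk, the MPS1 kinase, was not called under LPS, at 2.63 ± 0.111 CPM with siEhd1 and 1.70 ± 0.339 CPM with siControl (0.62, SE 0.21, edgeR adjusted p = 0.071), and averaged 6.5 ± 1.13 CPM with siEhd1 and 2.43 ± 0.413 CPM with siControl in resting cells (1.42, SE 0.16). The subunits of the APC/C itself and its activator Fzr1, which are listed apart from the members, were mostly near level. Of 15, 2 were called higher and 0 lower in resting cells, with a median of 0.05, and none was called under LPS, with a median of -0.02. Anapc15, at -0.34 in resting cells and 0.42 under LPS, was called higher in the difference between states (0.76, SE 0.20, edgeR adjusted p = 0.044). The ones called in resting cells were Anapc5 at 148 ± 1.01 CPM with siEhd1 and 121 ± 2.33 CPM with siControl (0.29, SE 0.05), and Cdc27 at 50.1 ± 3.48 CPM with siEhd1 and 43.2 ± 1.05 CPM with siControl (0.21, SE 0.07).

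**Figure D4:**
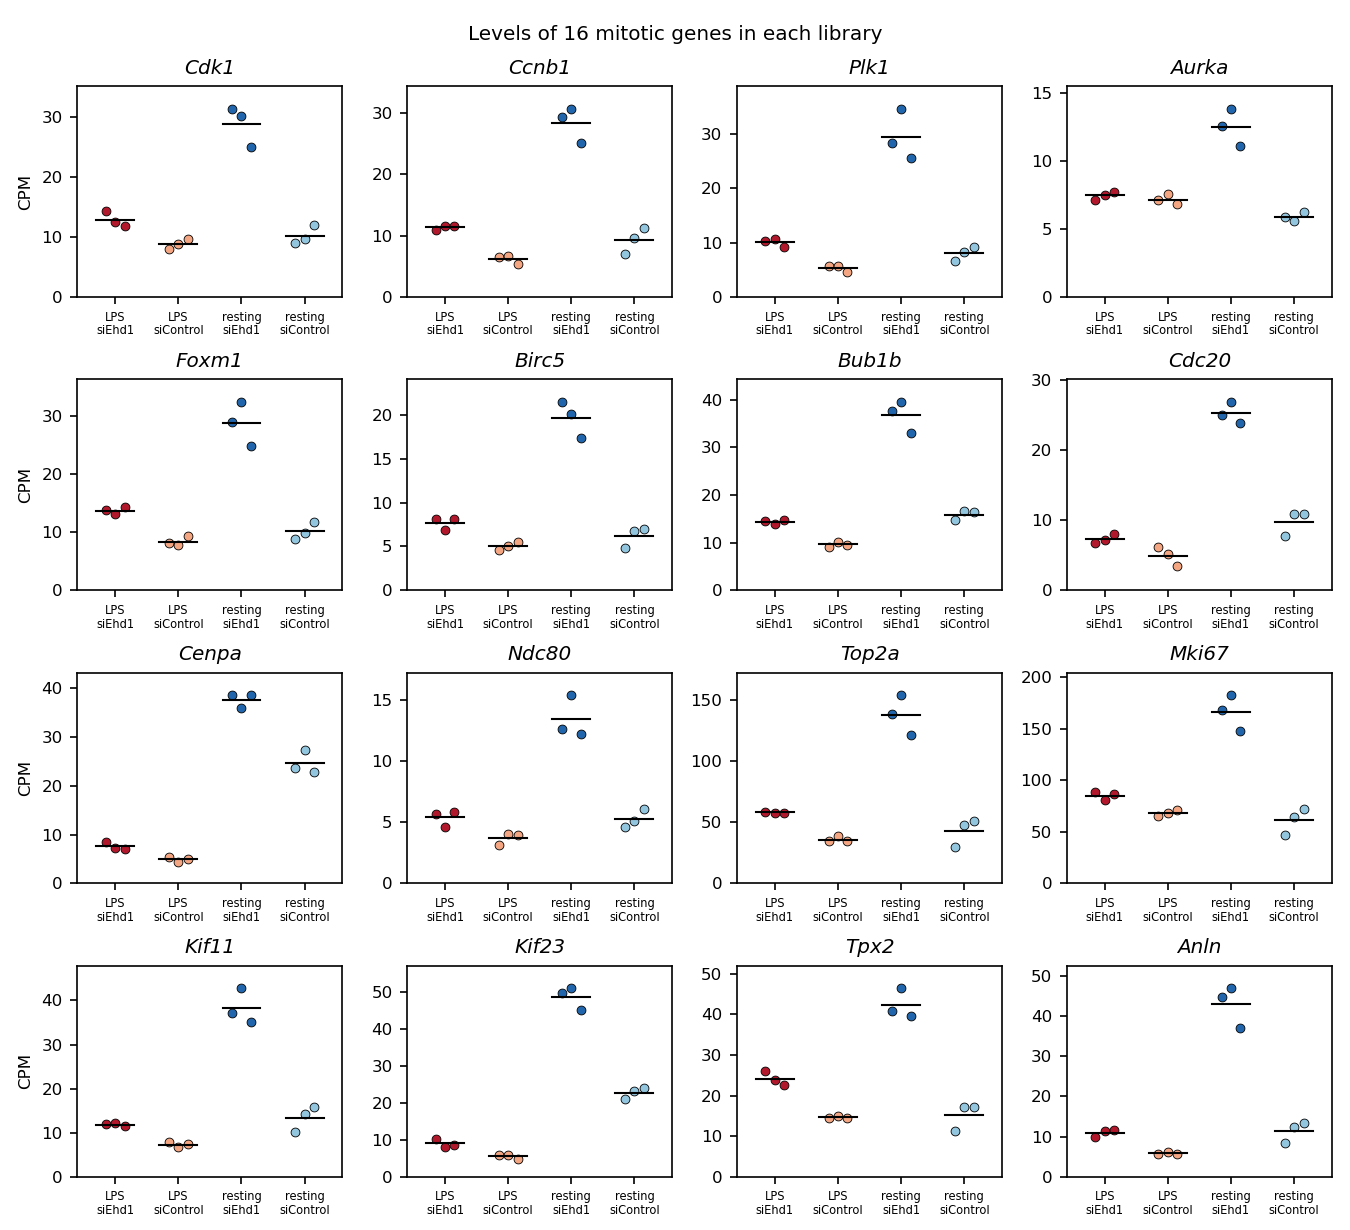
Levels in CPM of 16 of the genes in each library, in LPS-treated siEhd1, LPS-treated siControl, resting siEhd1 and resting siControl cells; points are libraries and lines are means of 3. In all 16 panels the resting siEhd1 libraries are the highest, Cenpa and Kif23 lie higher in both resting groups than with LPS, and the Aurka libraries of both siRNAs overlap under LPS.

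Kinetochores join chromosomes to microtubules, and 7 of 7 kinetochore and centromere genes were called higher with siEhd1 in resting cells and 6 of 7 in LPS-treated cells. Cenpa, the histone variant that marks the centromere, stood in LPS-treated cells at 8.40, 7.31 and 7.06 CPM with siEhd1, against 5.47, 4.46 and 4.95 CPM with siControl (log2 fold change 0.62, SE 0.12). For Cenpa the resting libraries gave 38.5, 35.9 and 38.4 CPM with siEhd1, against 23.6, 27.3 and 22.9 CPM with siControl (0.61, SE 0.08). The siEhd1 effect on Cenpa was close to equal in both states (difference 0.00, SE 0.10, edgeR adjusted p = 1). Cenpa also had the largest log2 change of the members between LPS-treated and resting siControl cells. Cenpe, a kinesin that carries chromosomes to the spindle equator, stood in LPS-treated cells at 16.5, 16.5 and 15.7 CPM with siEhd1, against 8.34, 9.47 and 10.1 CPM with siControl (0.80, SE 0.14). Resting levels of Cenpe were 41.0, 41.5 and 33.7 CPM with siEhd1, against 11.5, 16.9 and 16.9 CPM with siControl (1.36, SE 0.12). Cenpf, a large protein of the outer kinetochore, averaged 8.19 ± 1.10 CPM with siEhd1 and 4.49 ± 0.147 CPM with siControl in LPS-treated cells (0.86, SE 0.17) and 34.0 ± 2.85 CPM with siEhd1 and 11.8 ± 2.65 CPM with siControl in resting cells (1.53, SE 0.12).

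The NDC80 complex grips the microtubule end and is built from 4 of the members. Ndc80 stood in LPS-treated cells at 5.70, 4.65 and 5.85 CPM with siEhd1, against 3.16, 4.06 and 3.995 CPM with siControl (log2 fold change 0.52, SE 0.16, edgeR adjusted p = 0.041). Ndc80 in resting cells stood at 12.6, 15.4 and 12.2 CPM with siEhd1, against 4.62, 5.13 and 6.06 CPM with siControl (1.34, SE 0.13). Its LPS call was lost without LPS-treated siControl replicate 1 or 2 or siEhd1 replicate 1 or 3, with adjusted p up to 0.15. Nuf2, its direct partner, showed no call under LPS, at 5.45, 5.28 and 4.99 CPM with siEhd1, against 4.83, 4.21 and 3.71 CPM with siControl (0.30, SE 0.18, edgeR adjusted p = 0.34). Without LPS, Nuf2 stood at 16.7, 14.99 and 12.9 CPM with siEhd1, against 2.86, 4.43 and 5.09 CPM with siControl (1.84, SE 0.15). The 2 effects on Nuf2 differed more than for any other member (difference -1.54, SE 0.23, edgeR adjusted p = 5.3e-04). The other 2 subunits were called in both states. Spc24 averaged 3.21 ± 0.286 CPM with siEhd1 and 1.70 ± 0.254 CPM with siControl in LPS-treated cells (0.92, SE 0.17) and 6.39 ± 0.246 CPM with siEhd1 and 1.77 ± 0.198 CPM with siControl in resting cells (1.85, SE 0.15). Spc25 averaged 4.65 ± 0.461 CPM with siEhd1 and 2.68 ± 0.497 CPM with siControl in LPS-treated cells (0.80, SE 0.19) and 11.8 ± 1.07 CPM with siEhd1 and 4.29 ± 1.08 CPM with siControl in resting cells (1.46, SE 0.15). The Spc25 call under LPS was lost without LPS-treated siControl replicate 2 or siEhd1 replicate 1 (edgeR adjusted p up to 0.059).

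Among 10 genes of cohesion, condensation and separation, 10 were called higher in resting cells and 4 in LPS-treated cells, the lowest share of any role with more than 5 members. Top2a, the topoisomerase that untangles sister chromatids, stood in LPS-treated cells at 58.8, 57.8 and 57.9 CPM with siEhd1, against 34.5, 38.6 and 34.4 CPM with siControl (log2 fold change 0.70, SE 0.18, edgeR adjusted p = 0.049). For Top2a the resting libraries gave 138, 154 and 121 CPM with siEhd1, against 29.7, 48.1 and 51.4 CPM with siControl (1.68, SE 0.17). The LPS libraries of Top2a were far apart relative to their own spread (SD 0.521 CPM with siEhd1 and 2.40 CPM with siControl). The test takes 1 spread per gene from all 12 libraries, and the resting SDs were 16.3 CPM with siEhd1 and 11.7 CPM with siControl. The adjusted p lay close to the threshold and rose to as much as 0.13 when any 1 LPS-treated library was left out. Mki67 encodes the proliferation marker that coats mitotic chromosomes. It stood in LPS-treated cells at 88.6, 80.7 and 86.7 CPM with siEhd1, against 65.9, 68.6 and 70.8 CPM with siControl (0.32, SE 0.13, edgeR adjusted p = 0.19). Resting levels of Mki67 were 168, 183 and 148 CPM with siEhd1, against 47.1, 64.5 and 72.1 CPM with siControl (1.44, SE 0.13). Espl1, separase, the protease that cuts cohesin, stood in LPS-treated cells at 15.03, 14.6 and 15.03 CPM with siEhd1, against 11.3, 10.5 and 10.2 CPM with siControl (0.48, SE 0.10). Espl1 in resting cells stood at 22.0, 25.96 and 21.5 CPM with siEhd1, against 8.72, 10.04 and 10.9 CPM with siControl (1.23, SE 0.09).

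Condensin folds mitotic chromosomes into compact rods. Its core subunit Smc2 stood in LPS-treated cells at 27.4, 28.1 and 27.5 CPM with siEhd1, against 21.5, 22.0 and 24.0 CPM with siControl (log2 fold change 0.30, SE 0.08, edgeR adjusted p = 0.029). Without LPS, Smc2 stood at 49.6, 53.0 and 44.2 CPM with siEhd1, against 21.0, 24.6 and 26.1 CPM with siControl (1.04, SE 0.08). The LPS call of Smc2 was lost without LPS-treated siControl replicate 1 or 2 or any LPS-treated siEhd1 library, with adjusted p up to 0.097. Ncapd2, a condensin I subunit, averaged 28.2 ± 0.921 CPM with siEhd1 and 21.8 ± 1.17 CPM with siControl in LPS-treated cells (0.37, SE 0.11, edgeR adjusted p = 0.057) and 58.9 ± 6.96 CPM with siEhd1 and 24.8 ± 4.12 CPM with siControl in resting cells (1.25, SE 0.10). Ncapg, another, overlapped under LPS at 4.91, 3.44 and 4.07 CPM with siEhd1, against 2.61, 2.97 and 3.76 CPM with siControl (0.41, SE 0.18, edgeR adjusted p = 0.19) and averaged 10.6 ± 0.299 CPM with siEhd1 and 4.05 ± 0.857 CPM with siControl in resting cells (1.39, SE 0.15). Ncaph, the kleisin that closes the ring, averaged 12.8 ± 0.575 CPM with siEhd1 and 8.28 ± 0.368 CPM with siControl in LPS-treated cells (0.63, SE 0.18, edgeR adjusted p = 0.046) and 21.9 ± 3.13 CPM with siEhd1 and 8.47 ± 2.71 CPM with siControl in resting cells (1.37, SE 0.16). Its LPS call was lost without any 1 LPS-treated library, with adjusted p up to 0.13.

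The remaining genes of this role act on cohesin or on phosphatases, and none was called under LPS. Cdca5 encodes sororin, which protects cohesin, and had the largest adjusted p of the members in resting cells. It averaged 5.68 ± 0.7001 CPM with siEhd1 and 4.25 ± 0.321 CPM with siControl in LPS-treated cells (log2 fold change 0.42, SE 0.21, edgeR adjusted p = 0.26) and 7.95 ± 1.57 CPM with siEhd1 and 4.07 ± 1.31 CPM with siControl in resting cells (0.97, SE 0.19, edgeR adjusted p = 0.0015). Sgol1, shugoshin, guards centromeric cohesin and averaged 2.02 ± 0.348 CPM with siEhd1 and 1.43 ± 0.0530 CPM with siControl in LPS-treated cells (0.50, SE 0.20, edgeR adjusted p = 0.12). Resting levels of Sgol1 averaged 5.15 ± 0.464 CPM with siEhd1 and 1.42 ± 0.0889 CPM with siControl (1.85, SE 0.16). Cdca2, which targets a phosphatase to chromatin, averaged 5.48 ± 0.482 CPM with siEhd1 and 3.601 ± 0.416 CPM with siControl in LPS-treated cells (0.61, SE 0.21, edgeR adjusted p = 0.084) and 12 ± 1.25 CPM with siEhd1 and 4.27 ± 1.52 CPM with siControl in resting cells (1.49, SE 0.18). The cohesin ring and its loaders, listed apart from the members, were nearly level in both states. Of 9 tested, 1 was called higher and 1 lower in resting cells and none under LPS. The one higher was Rad21, the cleaved ring subunit, at 155 ± 6.36 CPM with siEhd1 and 125 ± 8.22 CPM with siControl (0.31, SE 0.05). The one lower was the loader Nipbl, at 157 ± 6.04 CPM with siEhd1 and 182 ± 6.10 CPM with siControl (-0.21, SE 0.05).

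Kinesin motors push, pull and trim spindle microtubules, and 9 of 9 were called higher with siEhd1 in resting cells and 8 of 9 in LPS-treated cells. Kif11, the motor that drives the poles apart, stood in LPS-treated cells at 11.9, 12.1 and 11.5 CPM with siEhd1, against 7.79, 6.64 and 7.47 CPM with siControl (log2 fold change 0.70, SE 0.15). For Kif11 the resting libraries gave 37.2, 42.7 and 35.04 CPM with siEhd1, against 10.1, 14.2 and 15.8 CPM with siControl (1.52, SE 0.12). Kif23, a subunit of centralspindlin, which organises the midzone, stood in LPS-treated cells at 10.2, 8.13 and 8.72 CPM with siEhd1, against 5.82, 5.997 and 4.90 CPM with siControl (0.70, SE 0.12). Resting levels of Kif23 were 49.9, 51.1 and 45.1 CPM with siEhd1, against 21.0, 23.3 and 24.1 CPM with siControl (1.09, SE 0.08). Both LPS-treated groups of Kif23 lay far below both resting groups. Kif20a, which brings the passenger complex to the midzone, stood in LPS-treated cells at 10.4, 11.8 and 12.8 CPM with siEhd1, against 8.63, 7.58 and 6.90 CPM with siControl (0.60, SE 0.15, edgeR adjusted p = 0.019). Kif20a in resting cells stood at 38.9, 44.5 and 32.1 CPM with siEhd1, against 12.3, 12.98 and 15.5 CPM with siControl (1.50, SE 0.12). Its LPS call was lost without LPS-treated siControl replicate 2 or 3 or siEhd1 replicate 2 or 3, with adjusted p up to 0.080.

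Of all 9 kinesins, 7 had a siEhd1 effect called lower under LPS than in resting cells, and Kif18b (difference -0.56, SE 0.20, edgeR adjusted p = 0.12) and Kif23 (difference -0.40, SE 0.14, edgeR adjusted p = 0.11) did not pass that test. Kif18b, which trims astral microtubules, averaged 6.27 ± 0.737 CPM with siEhd1 and 3.14 ± 0.293 CPM with siControl in LPS-treated cells (log2 fold change 0.99, SE 0.16) and 14.3 ± 1.36 CPM with siEhd1 and 4.86 ± 0.892 CPM with siControl in resting cells (1.56, SE 0.13). Kif4, a motor of chromosome arms and of the midzone, averaged 5.89 ± 0.436 CPM with siEhd1 and 3.10 ± 0.592 CPM with siControl in LPS-treated cells (0.93, SE 0.16) and 15.3 ± 2.18 CPM with siEhd1 and 4.46 ± 0.544 CPM with siControl in resting cells (1.78, SE 0.13). Kif2c is a microtubule depolymerase of the centromere. It averaged 7.64 ± 0.3503 CPM with siEhd1 and 4.73 ± 1.04 CPM with siControl in LPS-treated cells (0.69, SE 0.17, edgeR adjusted p = 0.019) and 22.8 ± 2.97 CPM with siEhd1 and 6.81 ± 1.43 CPM with siControl in resting cells (1.74, SE 0.14). Kif15, which helps hold the spindle bipolar, averaged 5.16 ± 0.869 CPM with siEhd1 and 3.62 ± 0.242 CPM with siControl in LPS-treated cells (0.51, SE 0.15, edgeR adjusted p = 0.046) and 12.5 ± 0.971 CPM with siEhd1 and 5.01 ± 0.808 CPM with siControl in resting cells (1.32, SE 0.13). Kif20b, which acts in cytokinesis, averaged 7.81 ± 0.697 CPM with siEhd1 and 5.54 ± 0.664 CPM with siControl in LPS-treated cells (0.49, SE 0.12, edgeR adjusted p = 0.015) and 22.7 ± 1.03 CPM with siEhd1 and 9.51 ± 1.25 CPM with siControl in resting cells (1.25, SE 0.10). Kif22, a motor bound to chromosome arms, was not called under LPS, at 8.25, 8.62 and 8.95 CPM with siEhd1, against 7.74, 7.38 and 6.80 CPM with siControl (0.23, SE 0.11, edgeR adjusted p = 0.20). Resting levels of Kif22 averaged 18.6 ± 1.79 CPM with siEhd1 and 8.67 ± 0.581 CPM with siControl (1.10, SE 0.09). The LPS call of Kif2c was lost without siControl replicate 3 or any siEhd1 library of that state (adjusted p up to 0.078). That of Kif15 was lost without any siControl library or siEhd1 replicate 1 or 3 (up to 0.24), and that of Kif20b without siControl replicate 2 or siEhd1 replicate 1 or 3 (up to 0.085).

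Proteins that bind and bundle spindle microtubules were the only role with at least 3 members in which every gene was called in both states, 6 of 6. Tpx2, which activates Aurora A at the spindle, stood in LPS-treated cells at 26.04, 23.9 and 22.5 CPM with siEhd1, against 14.5, 15.1 and 14.4 CPM with siControl (log2 fold change 0.72, SE 0.13). Without LPS, Tpx2 stood at 40.7, 46.4 and 39.5 CPM with siEhd1, against 11.4, 17.2 and 17.2 CPM with siControl (1.47, SE 0.12). Every LPS-treated siEhd1 library of Tpx2 lay above every resting siControl library. Hmmr, a spindle and hyaluronan-binding protein, had the largest siEhd1 effect under LPS, at 7.71, 6.63 and 8.15 CPM with siEhd1, against 3.90, 3.87 and 3.28 CPM with siControl (1.02, SE 0.20, edgeR adjusted p = 0.0046). For Hmmr the resting libraries gave 23.1, 24.4 and 19.1 CPM with siEhd1, against 5.59, 7.67 and 10.1 CPM with siControl (1.51, SE 0.15). Prc1, the bundler of the central spindle, stood in LPS-treated cells at 16.6, 16.6 and 17.6 CPM with siEhd1, against 10.1, 10.3 and 9.51 CPM with siControl (0.76, SE 0.12). Resting levels of Prc1 were 48.3, 50.7 and 41.1 CPM with siEhd1, against 12.1, 15.7 and 17.7 CPM with siControl (1.62, SE 0.10). Nusap1, which binds microtubules near chromosomes, averaged 8.72 ± 0.388 CPM with siEhd1 and 6.09 ± 0.539 CPM with siControl in LPS-treated cells (0.52, SE 0.13, edgeR adjusted p = 0.015) and 16.8 ± 2.69 CPM with siEhd1 and 6.51 ± 0.780 CPM with siControl in resting cells (1.37, SE 0.12). Ckap2 and Ckap2l are related proteins of spindle poles and microtubules. Ckap2 averaged 3.41 ± 0.189 CPM with siEhd1 and 1.95 ± 0.315 CPM with siControl in LPS-treated cells (0.81, SE 0.22, edgeR adjusted p = 0.022) and 11.3 ± 0.784 CPM with siEhd1 and 3.31 ± 1.09 CPM with siControl in resting cells (1.77, SE 0.16). Ckap2l averaged 7.87 ± 0.441 CPM with siEhd1 and 5.63 ± 0.305 CPM with siControl in LPS-treated cells (0.48, SE 0.14, edgeR adjusted p = 0.040) and 15.4 ± 2.58 CPM with siEhd1 and 5.08 ± 0.893 CPM with siControl in resting cells (1.60, SE 0.13). The LPS call of Nusap1 was lost without siControl replicate 3 or siEhd1 replicate 1 of that state (adjusted p up to 0.070). That of Ckap2 was lost without siControl replicate 2 or siEhd1 replicate 1 or 2 (up to 0.10), and that of Ckap2l without any 1 LPS-treated library (up to 0.12).

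Cytokinesis genes had the highest median resting effect of the roles with at least 3 members, 1.90 over 3 genes. Anln, anillin, the scaffold of the contractile ring, stood in LPS-treated cells at 9.83, 11.4 and 11.7 CPM with siEhd1, against 5.62, 6.20 and 5.61 CPM with siControl (log2 fold change 0.92, SE 0.17). Anln in resting cells stood at 44.8, 46.9 and 36.9 CPM with siEhd1, against 8.45, 12.5 and 13.5 CPM with siControl (1.90, SE 0.13). Ect2, which acts at the cleavage site, stood in LPS-treated cells at 7.91, 7.65 and 7.80 CPM with siEhd1, against 4.04, 4.81 and 5.37 CPM with siControl (0.71, SE 0.12). Without LPS, Ect2 stood at 18.8, 18.8 and 16.1 CPM with siEhd1, against 5.90, 6.88 and 6.67 CPM with siControl (1.46, SE 0.10). Shcbp1, a partner of centralspindlin, was not called under LPS, at 2.21, 2.76 and 3.33 CPM with siEhd1, against 1.82, 1.59 and 1.90 CPM with siControl (0.63, SE 0.21, edgeR adjusted p = 0.075). For Shcbp1 the resting libraries gave 8.29, 8.63 and 7.41 CPM with siEhd1, against 1.50, 2.06 and 2.72 CPM with siControl (1.95, SE 0.17). The 2 members outside these roles followed the same order. Prr11 stood in LPS-treated cells at 7.96, 7.41 and 8.203 CPM with siEhd1, against 4.19, 4.86 and 4.04 CPM with siControl (0.85, SE 0.15). Resting levels of Prr11 were 19.8, 22.5 and 16.6 CPM with siEhd1, against 3.92, 5.70 and 5.22 CPM with siControl (1.99, SE 0.13). Cdca3 averaged 8.94 ± 0.208 CPM with siEhd1 and 5.81 ± 0.377 CPM with siControl in LPS-treated cells (0.62, SE 0.15, edgeR adjusted p = 0.016) and 21.6 ± 3.19 CPM with siEhd1 and 7.67 ± 1.84 CPM with siControl in resting cells (1.49, SE 0.13). The LPS call of Cdca3 was lost without LPS-treated siControl replicate 1 or 3 or siEhd1 replicate 1 or 3, with adjusted p up to 0.067.

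Between LPS-treated and resting siControl cells, about as many of the members were called lower as were left without a call. Each state has a count table of its own. LPS treatment and handling that differed between the tables thus cannot be told apart in any comparison of LPS-treated with resting cells. Of 59 members, 30 were called lower, where 34.0% of all tested genes were called lower, and 2 higher, where 34.8% were. The median log2 fold change was -0.38 against -0.01 over all tested genes, and it was -0.23 without resting siControl replicate 3 and -0.51 without resting siControl replicate 1, with 22 and 37 members called lower. The 2 higher were Aurka (log2 fold change 0.28, SE 0.11, edgeR adjusted p = 0.034) and Incenp (0.27, SE 0.06, edgeR adjusted p = 6.4e-04), and the Aurka call was lost with DESeq2, with only the compared groups in the fit and without any of 4 libraries (siControl replicate 1 or 2 of either state; adjusted p up to 0.11). Of the 32 calls, 21 held under every alternative.

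The first 4 promoters printed above were chosen by the LPS effect with siControl, so their genes head this ranking by that choice. Cenpa (log2 fold change -2.31, SE 0.10) and Kif23 (-2.03, SE 0.10) had the lowest values, followed by Ccnb2 (-1.53, SE 0.14) and Cenpf (-1.39, SE 0.15). Hmmr (-1.08, SE 0.20), Cdc20 (-0.99, SE 0.17) and Anln (-0.98, SE 0.17) came next. The roles differed in their counts. Kinesins were called lower in 9 of 9 cases, with a median of -0.63, and kinetochore genes in 5 of 7, with a median of -0.68. The calls of Kif15, Kif22, Kif2c and Kif4 were lost in some alternatives, and the kinesins called were 6 without resting siControl replicate 3 and 6 without LPS-treated siControl replicate 3. No gene of cohesion, condensation and separation was called in either direction among 10, with a median of -0.06 and values from -0.38 for Ncapg to 0.16 for Mki67. Without resting siControl replicate 1, 4 of these 10 were called lower (Ncapd2, Ncapg, Top2a and Cdca2), without LPS-treated siControl replicate 3 Ncapg was, and without resting siControl replicate 3 Mki67 was called higher. Of the passenger complex genes 0 of 4 were called lower, and without resting siControl replicate 1 Birc5 was. The difference between roles was not tested.

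With siEhd1 the same LPS comparison gave 58 of 59 members called lower, where 34.0% of all tested genes were called lower, with a median of -1.31. Kif23 had the lowest value (log2 fold change -2.43, SE 0.09), followed by Cenpa (-2.31, SE 0.09) and Ccnb2 (-2.10, SE 0.11). At least a 2-fold decrease was seen in 43 members with siEhd1, against 5 with siControl. Incenp was the member not called (0.09, SE 0.06, edgeR adjusted p = 0.18). Cdca5 (-0.48, SE 0.19, edgeR adjusted p = 0.034) lost its call without resting siEhd1 replicate 1 or 2 or LPS-treated siEhd1 replicate 1 or 3, with adjusted p up to 0.14. These comparisons use the same 12 libraries as the siEhd1 effects, and the gap between the 2 LPS effects of a gene is the difference between states given above.

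**Figure D5:**
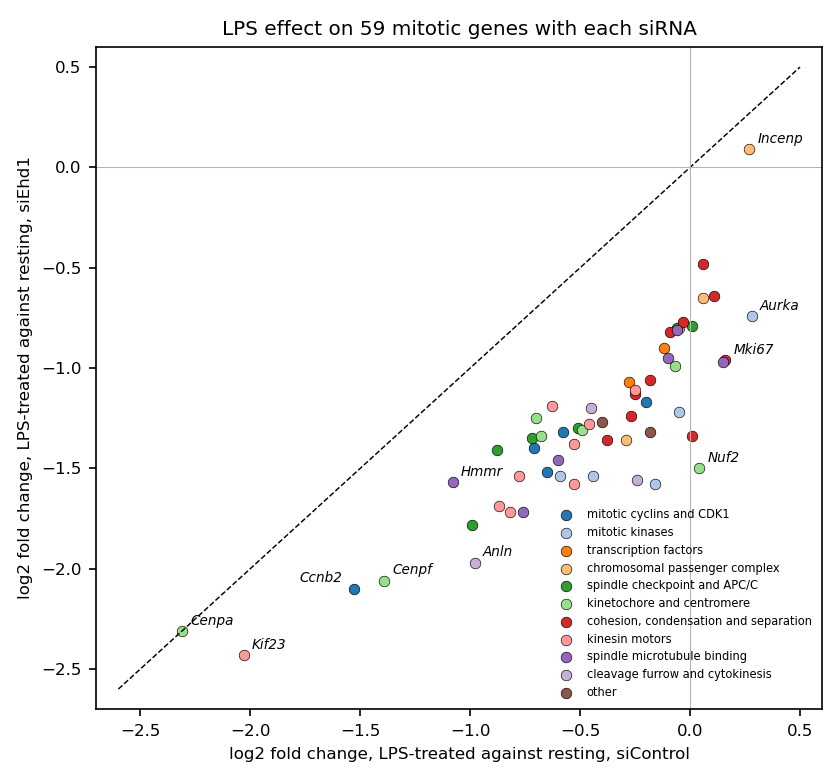
Log2 fold change of LPS-treated against resting cells with siEhd1 (vertical axis) and with siControl (horizontal axis) for the 59 genes, coloured by role; the dashed line marks equal effects. Cenpa lies on the line at -2.31 on both axes and the other genes lie below it, Nuf2 at 0.04 with siControl and -1.50 with siEhd1.

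Seen over all 4 groups, the mean was highest in resting siEhd1 cells for 58 of 59 members, and lowest in LPS-treated siControl cells for 49 and in resting siControl cells for 10. For the 49, LPS-treated siEhd1 cells and resting siControl cells lay in between. Over all members, the mean was higher in LPS-treated siEhd1 cells than in resting siControl cells for 47, with a median ratio of 1.22 and a range from 0.309 to 1.81. All LPS-treated siEhd1 libraries lay above all resting siControl libraries for 22 members and below all of them for 3, which were Ccnb2, Cenpa and Kif23. For the other members the libraries of these groups overlapped. The comparison crosses both siRNA and LPS and was not tested.

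Other genes of the same pathways were counted from lists. Of 62 other mitotic genes tested, 55 were called higher and 2 lower in resting cells, with a median of 1.11, and 21 higher and 0 lower in LPS-treated cells, with a median of 0.44. Aspm, a spindle pole protein, averaged 5.81 ± 0.137 CPM with siEhd1 and 3.21 ± 0.329 CPM with siControl in LPS-treated cells (0.85, SE 0.14). In resting cells it averaged 28.7 ± 3.29 CPM with siEhd1 and 10.2 ± 0.871 CPM with siControl (1.49, SE 0.09). Kifc1, a minus-end kinesin, and Spag5, astrin, had resting log2 fold changes of 1.40 (SE 0.10) and 1.70 (SE 0.12). The 2 lower genes were not close to the others in size. Ncapg2, a condensin II subunit, averaged 77.0 ± 5.95 CPM with siEhd1 and 99.2 ± 5.83 CPM with siControl in resting cells (-0.37, SE 0.07). In LPS-treated cells it was called higher (0.29, SE 0.07, edgeR adjusted p = 0.010), a call lost without LPS-treated siEhd1 replicate 3 (adjusted p = 0.076). Pttg1, securin, which holds separase inactive, averaged 9.53 ± 0.234 CPM with siEhd1 and 12.2 ± 0.532 CPM with siControl in resting cells (-0.36, SE 0.08). Under LPS Pttg1 had a log2 fold change of -0.06 (edgeR adjusted p = 0.72).

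Regulators of cell cycle promoters had smaller medians. Of 18 DREAM, MuvB and E2F genes, 9 were called higher and 0 lower in resting cells, with a median of 0.17, and 4 higher and 1 lower in LPS-treated cells, with a median of 0.04. E2f8 and E2f7, which encode repressor E2Fs of the cycle, had resting log2 fold changes of 1.17 (SE 0.12) and 1.84 (SE 0.22). Rbl1, a pocket protein of the DREAM complex, was called higher in resting cells (0.59, SE 0.07) and stood at 0.04 (SE 0.07, edgeR adjusted p = 0.83) under LPS. The one lower under LPS was E2f6 (-0.28, SE 0.09, edgeR adjusted p = 0.048), a call lost in 8 of 11 alternatives with adjusted p up to 0.24. Of 41 DNA replication genes, 36 were called higher and 0 lower in resting cells, with a median of 0.78, and 12 higher and 1 lower in LPS-treated cells, with a median of 0.34. Chaf1a, a histone chaperone (0.96, SE 0.09), Tk1, thymidine kinase (1.27, SE 0.12), and Mcm7, a subunit of the replicative helicase (0.93, SE 0.09), had the smallest resting p-values. Rfc3 was the one lower under LPS (-0.38, SE 0.12, edgeR adjusted p = 0.048), a call lost in 9 of 11 alternatives with adjusted p up to 0.24. The lists were chosen with earlier results of these data known, and their medians stand beside -0.02 in resting cells and 0.00 in LPS-treated cells over all tested genes.

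Markers of macrophages were abundant in every library and fell in part with siEhd1 in resting cells. Their sum over 10 genes lay between 35465 and 37184 CPM in LPS-treated siEhd1 libraries, against 32384 to 38919 CPM in LPS-treated siControl libraries. In resting cells it lay between 19948 and 21375 CPM with siEhd1, against 23920 to 24603 CPM with siControl. There 5 genes were called lower (Csf1r, Fcgr1, Mertk, Cd14 and Lyz2) and 1 higher (Mrc1). Of all tested genes, 14.2% were called lower and 14.0% higher in resting cells. Lyz2, the largest part of the sum, averaged 11312 CPM with siEhd1 and 14232 CPM with siControl in resting cells. Osteoclasts, the fused cells that resorb bone, come from the same precursors, and part of their markers were called higher with siEhd1. Their sum over 8 genes lay between 178 and 197 CPM with siEhd1, against 101 to 134 CPM with siControl, in LPS-treated cells. In resting cells it lay between 472 and 555 CPM with siEhd1, against 342 to 452 CPM with siControl. Of 6 tested, 3 were called higher under LPS (Acp5, Ctsk and Mmp9) and 4 in resting cells (Acp5, Ocstamp, Dcstamp and Mmp9). Of all tested genes, 4.44% were called higher under LPS and 14.0% in resting cells. The largest part of the resting sum, Atp6v0d2, averaged 376 ± 24.6 CPM with siEhd1 and 327 ± 44.0 CPM with siControl. It was not called there (0.20, SE 0.15, edgeR adjusted p = 0.38), nor was Ctsk (0.17, SE 0.09, edgeR adjusted p = 0.20).

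Markers of other cells were low, apart from the dendritic cell list. The myeloid progenitor sum over 10 genes lay between 3.29 and 4.21 CPM with siEhd1, against 2.81 to 4.74 CPM with siControl, in LPS-treated cells. In resting cells it lay between 2.55 and 2.86 CPM with siEhd1, against 1.62 to 2.15 CPM with siControl, and Kit, the stem cell factor receptor, was the 1 of 4 tested genes called (0.89, SE 0.28, edgeR adjusted p = 0.022). Neutrophil markers summed to at most 4.94 CPM in any library, with Retnlg at 0. Lymphocyte markers summed to at most 9.16 CPM, mostly Cd4, with Cd3e and Nkg7 at 0, and none was called. Dendritic cell markers, almost all from Itgax, an integrin that macrophages also express, summed to 97.3 to 98.8 CPM with siEhd1, against 75.7 to 108 CPM with siControl, in LPS-treated cells. In resting cells they summed to 283 to 361 CPM with siEhd1, against 270.0 to 408 CPM with siControl, and none was called in either state. Stromal and endothelial markers summed to 14.6 to 22.3 CPM with siEhd1, against 10.1 to 26.6 CPM with siControl, in LPS-treated cells. Their resting sums were 0.852 to 5.08 CPM with siEhd1, against 1.40 to 6.01 CPM with siControl. Of 5 tested, 1 was called higher under LPS with siEhd1 (Dcn, 0.96, SE 0.23, edgeR adjusted p = 0.013) and none in resting cells. Under LPS 4.44% of all tested genes were called higher. The part of any of these cells in the level of the mitotic genes was not tested.

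The members lie on 18 chromosomes, with 10 on chromosome 2 and 6 each on chromosomes 9 and 11. In the GENCODE annotation of GRCm38, Nuf2 spans chr1:169497934-169531464, Kif23 chr9:61915905-61946774 and Cenpa chr5:30666777-30674830. Incenp spans chr19:9872296-9899551 and Sgol1, named Sgo1 in that annotation, chr17:53674786-53689333. Over 10% of the exon bases of 7 members are shared with a gene on the opposite strand. These are Kif20a with Cdc23 (29.3%), Ube2c with Tnnc2 (22.8%), Kif4 with Pdzd11 (15.1%), Ncapg with Lcorl (13.4%), Cdc25c with Gm3550 (12.7%), Ccna2 with Exosc9 (12.5%) and Prc1 with Rccd1 (11.1%). No source used here gives the strand setting of the counting, so the counts of these 7 are uncertain to that extent. Ccnb1, Ccnb2, Kif22 and Kif4 also have a named pseudogene that could take some of their reads.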

How the data were processed

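PolyA RNA was sequenced from 12 libraries, 3 in each of 4 groups. The 2 deposited tables, 1 per state, hold the authors' raw counts by gene symbol, which were used unchanged. The submitters' processing notes name the mm10 build and, with no role, STAR 2.7.6a and featureCounts 2.20.0, besides FastQC 0.10.1, R 4.4.2, DESeq2 1.46.0, cutadapt and Trim Galore 0.6.3. For annotation, strand setting and multiply mapped reads no setting is given in the sources used here. All columns were matched to samples by the labels' names.

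The members and all gene lists were chosen with earlier results of these data known. Tests on the counts used edgeR 4.0.16 (R 4.3.3, limma 3.58.1) after filterByExpr by group (minimum count 10, minimum total 15), which kept 12164 of 17270 genes with a count. TMM factors and a robust quasi-likelihood fit of 4 group means over all 12 libraries left 8 residual degrees of freedom; the common BCV (biological coefficient of variation) was 0.0588. Each contrast used the quasi-likelihood F test with Benjamini-Hochberg adjustment over all tested genes, and a gene was called at an adjusted p below 0.05. The SE was taken as the size of the log2 fold change over the root of F. The fit was tested on simulated data first. Counts of libraries within a group differed beyond sampling noise (a chi-square over its degrees of freedom of 3.102 to 24.84), so none was counted as a repeat of another. Counting error weighs most on the low members, which held as few as 11 counts in a library.

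Values are given for members named by role, for those not called in a contrast and for those called in the difference; single libraries are printed for members named by role, and means for most others. From each other pathway list, up to 3 called genes with the smallest resting p and up to 3 called against most of their list are named. Locations come from GENCODE M21 on GRCm38 and promoters from RefSeq. Alternatives were DESeq2 size factors, no count filter, the DESeq2 1.42.0 test, fits of the compared groups only, the replicate number as a block, and leaving out each library.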

Additional observations from a re-analysis of the deposited data

Results flagged for a closer look

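For 39 members the siEhd1 effect differed between LPS-treated and resting cells by the edgeR test of the difference itself. Values are the log2 effect in LPS-treated cells minus that in resting cells, and all 39 were negative, as were 58 of 59 over all members. Among the mitotic cyclins and CDK1 the differences were -0.96 for Cdk1 and -0.74 for Ccnb1. All 5 mitotic kinases differed, by -0.96 for Plk1, -1.02 for Aurka, -1.10 for Nek2, -1.17 for Melk and -1.42 for Pbk. Of the transcription factors the difference was -0.79 for Foxm1. In the chromosomal passenger complex the differences were -0.71 for Aurkb, -1.07 for Birc5 and -0.75 for Cdca8. Of the checkpoint and APC/C genes the differences were -0.63 for Bub1b and -0.74 for Mad2l1. Of the kinetochore genes the differences were -0.82 for Ndc80, -1.54 for Nuf2 and -0.92 for Spc24. Among genes of cohesion, condensation and separation the differences were -1.35 for Sgol1, -0.74 for Espl1, -0.74 for Smc2, -0.88 for Ncapd2, -0.98 for Ncapg and -1.12 for Mki67. Among the kinesins the differences were -0.82 for Kif11, -0.81 for Kif15, -0.90 for Kif20a, -0.76 for Kif20b, -0.87 for Kif22, -1.05 for Kif2c and -0.85 for Kif4. Among the microtubule-binding genes the differences were -0.75 for Tpx2, -0.85 for Nusap1, -0.96 for Ckap2, -1.11 for Ckap2l and -0.86 for Prc1. All 3 cytokinesis genes differed, by -0.99 for Anln, -0.75 for Ect2 and -1.32 for Shcbp1. The 2 members outside these roles gave -1.14 for Prr11 and -0.87 for Cdca3. Of the 39 calls, 27 held under every alternative. The other 12 were lost in at least 1, with the largest adjusted p between 0.054 and 0.11. The block on replicate number was the 1 setting that lost Kif20a, and the other 11 were lost without single libraries. Leaving out LPS-treated siEhd1 replicate 1 lost Ccnb1, Cdca8, Kif4 and Ckap2, replicate 2 lost Ccnb1, Ndc80, Kif15, Tpx2 and Ckap2 and replicate 3 lost Ccnb1, Cdca8, Tpx2 and Ckap2. Leaving out LPS-treated siControl replicate 1 lost Ccnb1, Cdca8, Kif11, Kif4, Tpx2, Ckap2 and Anln, replicate 2 lost Ccnb1, Ndc80, Spc24, Kif4, Tpx2, Anln and Cdca3 and replicate 3 lost Kif11, Ckap2 and Anln. Leaving out resting siEhd1 replicate 1 lost Ccnb1, Spc24, Kif15, Kif4 and Ckap2, replicate 2 lost Ccnb1, Ndc80 and Ckap2 and replicate 3 none. Leaving out resting siControl replicate 1 lost Cdca8, Ndc80, Kif15, Kif4 and Ckap2, replicate 2 lost Ccnb1, Cdca8, Spc24 and Ckap2 and replicate 3 none. The cause of the difference between the states was not tested.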

How the results depend on the processing

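Every alternative left all 59 members called higher with siEhd1 in resting cells none called lower with siEhd1 in either state, and no called member in the opposite direction. In LPS-treated cells the count of 42 lay between 25 and 35 when single libraries were left out, lowest without LPS-treated siEhd1 replicate 1, and between 34 and 46 under the other settings. In the difference between states the count of 39 lay between 33 and 49 without single libraries and between 36 and 49 otherwise, highest with the DESeq2 test. For LPS with siControl the 30 lower calls lay between 22 and 37 without single libraries and between 27 and 30 otherwise. The 2 higher calls became 1 with the DESeq2 test and 1 with only the compared groups in the fit, and lay between 1 and 3 without single libraries. For LPS with siEhd1 the 58 lower calls lay between 57 and 58. Values near 0 that were not called changed sign. Cenpa in the difference was 0.00 without a count filter, 0.00 with the replicate block and -0.08 to 0.08 without single libraries. For LPS with siControl, leaving out single libraries gave Bub1 -0.21 to 0.15, Nuf2 -0.16 to 0.22, Cdca5 -0.18 to 0.26, Sgol1 -0.04 to 0.05, Tpx2 -0.23 to 0.04, Melk -0.13 to 0.08 and Pbk -0.36 to 0.04. It gave Mybl2 -0.29 to 0.04, Cdca8 -0.12 to 0.04, Mad2l1 -0.16 to 0.02, Spc24 -0.17 to 0.04, Ncaph -0.20 to 0.26 and Cdca2 -0.50 to 0.01. For siEhd1 in LPS-treated cells it gave Cdc27 0.00 to 0.11. The cause of these changes was not tested. The labels number replicates alike in each group but do not say that a number marks a shared source. The main fit did not use the numbers as pairs, and 3 libraries a group are too few to settle whether they are. Deviations of same-numbered libraries correlated at -0.17 to 0.19 within states and -0.16 to 0.25 across them, with 1 of 6 pairs over 0.1 in each case, and not every library correlated best with its own number. With the replicate number as a block the counts were 59 in resting cells, 34 in LPS-treated cells, where Cdk1, Ndc80, Ncaph, Top2a, Kif15, Kif20a, Kif2c and Ckap2l were no longer called, and 36 in the difference, where Ccnb1, Kif20a and Ckap2 were not. Depth limits mainly Cdc25c, which held as few as 11 counts in a library. With 3 libraries a group, the lost calls under LPS do not show that those members did not differ.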

Other observations

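The 59 genes took up 0.0709 to 0.0740% of all counts in LPS-treated siEhd1 libraries, 0.0495 to 0.05% in LPS-treated siControl libraries, 0.166 to 0.199% in resting siEhd1 libraries and 0.0591 to 0.0780% in resting siControl libraries. Top2a and Ube2c each held 6 CCAAT boxes in their 300-base promoters and Hmmr held 5.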
